A study of Homo sapiens with 27 samples.

Results

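The Shroom family and the teneurin family comprise 8 genes, SHROOM1 to SHROOM4 and TENM1 to TENM4, and all 8 were among the 44852 genes of the deposited count table. The members were found by matching Ensembl gene identifiers to symbols. The group was chosen from measured values, because the day 32 levels of SHROOM4 and TENM4 on LN523 exceeded those on LN521. The day 32 values of LN523 and LN521 are therefore given as a description without a test for every member, and SHROOM4 and TENM4 are not tested in any comparison that contains those libraries.

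Shroom proteins are actin-binding scaffolds at the apical junctions of epithelial cells, where myosin II contracts the apical surface. Apical constriction of this kind bends epithelial sheets, and SHROOM3 is known for its part in neural tube closure and in invagination of the lens pit. Teneurins are large transmembrane proteins that bind one another and the latrophilin adhesion receptors across the gap between cells, and in the visual system they are known for guiding the wiring of retinal neurons.

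The 27 bulk RNA-seq libraries came from H1, an established line of human embryonic stem cells. Cells were cultured on 3 laminin matrices (LN523, LN323, and LN521) and RNA was taken at days 2, 22, and 32, giving 9 groups of 3 libraries. Day 2 cells were undifferentiated. From day 2 the cells of all 3 matrices received CKI-7 and SB431542, followed by photoreceptor medium with BDNF, CNTF, retinoic acid, and DAPT. The labels describe LN523 and LN521 as coatings that also contained LN323, with LN323 used alone, whereas the study's methods combine LN523 and LN323 with LN521 and use LN521 alone, so each matrix is called here by the isoform that sets it apart. Days 2, 22, and 32 appear in the titles as 0, 20, and 30. No source used here says whether the 3 libraries of a group were separate cultures, so p-values measure the spread between these libraries, which may be technical.

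Libraries held 25620624 to 47340990 counts each, and the lowest count of a member in any library was 34, for TENM2 at day 2. The summed level of 6 pluripotency markers was 7517 to 12650 CPM (each count scaled by the TMM-normalized library size to 1000000 reads) at day 2 and 82.7 to 562 CPM at day 22, and the sum of 6 neural retina progenitor markers was 3.56 to 6.91 CPM at day 2 and 922 to 1974 CPM at day 22. In these bulk libraries fewer cells of a type and less RNA per cell cannot be told apart. The LN521 library of day 22, replicate 1, stood apart, with a sum of 7 ganglion cell and neuron markers of 383 CPM against 30.5 and 51.4 CPM in the other LN521 libraries of that day. In the same library the pluripotency marker sum was 562 CPM, against 161 and 242 CPM in the others. The pluripotency marker POU5F1 was at 73.8 CPM there, against 1.48 and 1.33 CPM. Replicate 2 of LN523 at day 22 had a mesenchyme and endothelium marker sum of 3652 CPM against 902 and 1157 CPM in the others of its group. Its neural retina progenitor sum was 922 CPM against 1898 and 1891 CPM. That library held the highest TENM2 and TENM4 values and the lowest SHROOM4 value of its group. The part of these sums in those values was not tested. Replicate 2 of LN523 and of LN323 at day 32 had sums of 5 mesenchyme and endothelium markers of 6599 and 10280 CPM, against 881 to 3981 CPM in the other 4 libraries of those groups. Replicate 1 of LN521 at day 32 differed from replicates 2 and 3 of its group. Its neuron marker sum was 629 CPM against 130 and 171, and its photoreceptor precursor sum 124 against 38.4 and 31.4. Its pigment epithelium sum was 607 CPM against 2210 and 2050.

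SHROOM3, SHROOM4, TENM2, and TENM4 rose together from day 2 to day 22 on all 3 matrices, and the RefSeq sequences upstream of their starts are shown to compare their base composition. Each line gives the 250 bases before an annotated start of one of these genes, 5′ to 3′ on the gene's own strand in GRCh38.p14, with every CG dinucleotide in capitals. TENM2 has a pair of entries.
SHROOM3 (chr4:76434979-76435228, plus strand): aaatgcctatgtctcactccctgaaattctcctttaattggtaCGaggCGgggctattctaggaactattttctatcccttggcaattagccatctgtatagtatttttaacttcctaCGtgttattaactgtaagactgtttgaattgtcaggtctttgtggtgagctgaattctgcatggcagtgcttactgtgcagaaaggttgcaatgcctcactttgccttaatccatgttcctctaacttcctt
TENM2 (chr5:167072992-167073241, plus strand): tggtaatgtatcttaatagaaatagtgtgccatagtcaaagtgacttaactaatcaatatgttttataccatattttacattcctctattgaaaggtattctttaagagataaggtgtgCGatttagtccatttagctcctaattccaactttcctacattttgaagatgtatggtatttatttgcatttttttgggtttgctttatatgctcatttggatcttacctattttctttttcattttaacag
TENM2 (chr5:167754679-167754928, plus strand): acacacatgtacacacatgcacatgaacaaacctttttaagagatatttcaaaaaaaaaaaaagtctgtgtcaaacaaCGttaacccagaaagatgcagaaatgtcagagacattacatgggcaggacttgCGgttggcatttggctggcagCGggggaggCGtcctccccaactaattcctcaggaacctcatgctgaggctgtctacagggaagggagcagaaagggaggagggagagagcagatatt
TENM4 (chr11:79441031-79441280, minus strand): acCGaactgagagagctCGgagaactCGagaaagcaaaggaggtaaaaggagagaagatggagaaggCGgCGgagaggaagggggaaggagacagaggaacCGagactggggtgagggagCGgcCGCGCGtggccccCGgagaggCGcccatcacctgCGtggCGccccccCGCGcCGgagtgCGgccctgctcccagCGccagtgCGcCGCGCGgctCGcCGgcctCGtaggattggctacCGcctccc
The window of TENM4 held 27 CG dinucleotides, against 3 for SHROOM3 and 1 and 4 for TENM2. The SHROOM4 window, which overlaps an annotated SHROOM4 exon and is not shown, also held 3. In GENCODE 44 the SHROOM3 and TENM4 windows lie just outside the 5′ end of the gene. The TENM2 windows lie inside the gene, which begins at 166979029. The SHROOM4 window (50643673-50643922) also lies inside its gene, which begins at 50814302 on the minus strand. The TENM2 and SHROOM4 values are thus those of internal starts. Across whole windows of 300 bases, which run from 250 bases before to 50 bases after a start, the median of 35116 human promoters was 14 CG dinucleotides and 58.7% GC. SHROOM3 had 5 and 44.3%, SHROOM4 4 and 51.3%, and TENM4 30 and 66.3%. The TENM2 windows had 3 and 32.0%, and 4 and 47.3%. The letters TAATCC, which the retinal homeobox factors OTX2 and CRX bind, were searched on both strands and occurred in the SHROOM3 window at 25 bases before the start (coordinate -25) and in one of the TENM1 windows. They occur in 6.4% of all promoters, and the windows of SHROOM4, TENM2, and TENM4 held no match. SHROOM1 and TENM3, which passed no test at day 22 against day 2, had windows with 5 and 39 and with 22 and 39 CG dinucleotides, and TENM1 had windows with 1 and 15. Those with 5 (SHROOM1), 39 (TENM3), and 1 (TENM1) lie inside their genes as well. The promoter table matched 7 of the 8 members by symbol, all except SHROOM2.

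On a scale that also divides by gene length and sums to 1000000 in each library (TPM), SHROOM3 and TENM3 had the highest median levels of the 8 members at each day. At day 2, TENM3 had a median of 55.1 TPM over 9 libraries (range 36.9 to 114) and was above SHROOM3 (32.3 TPM, 26.9 to 42.6) in 9 of 9 libraries. SHROOM2 followed at 15.8 TPM, SHROOM4 at 6.54, TENM4 at 4.03, SHROOM1 at 3.46, TENM2 at 0.690, and TENM1 at 0.649 TPM. The ranges of TENM3 and SHROOM3, of SHROOM4 and TENM4, of TENM4 and SHROOM1, and of TENM2 and TENM1 overlapped, so the levels of those neighbours were not set apart by their spread. At day 22 SHROOM3 led with a median of 106 TPM (78.8 to 128) and lay above TENM3 (45.5 TPM, 33.0 to 170) in 8 of 9 libraries. Next came TENM4 at 31.1 TPM and SHROOM4 at 24.1 TPM, followed by SHROOM2 at 20.3 TPM and TENM2 at 16.7 TPM. Neighbouring ranges overlapped among these 6 genes, and only SHROOM1 (5.58 TPM) and TENM1 (1.34 TPM) were set apart below them. At day 32 the first 4 places were the same, with medians of 98.5 TPM for SHROOM3, 44.04 for TENM3, 37.2 for TENM4, and 28.1 for SHROOM4, and the only neighbours whose ranges did not overlap were SHROOM2 and SHROOM1. TENM3 was above TENM4 in only 5 of 9 libraries at day 32.

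**Figure D1:**
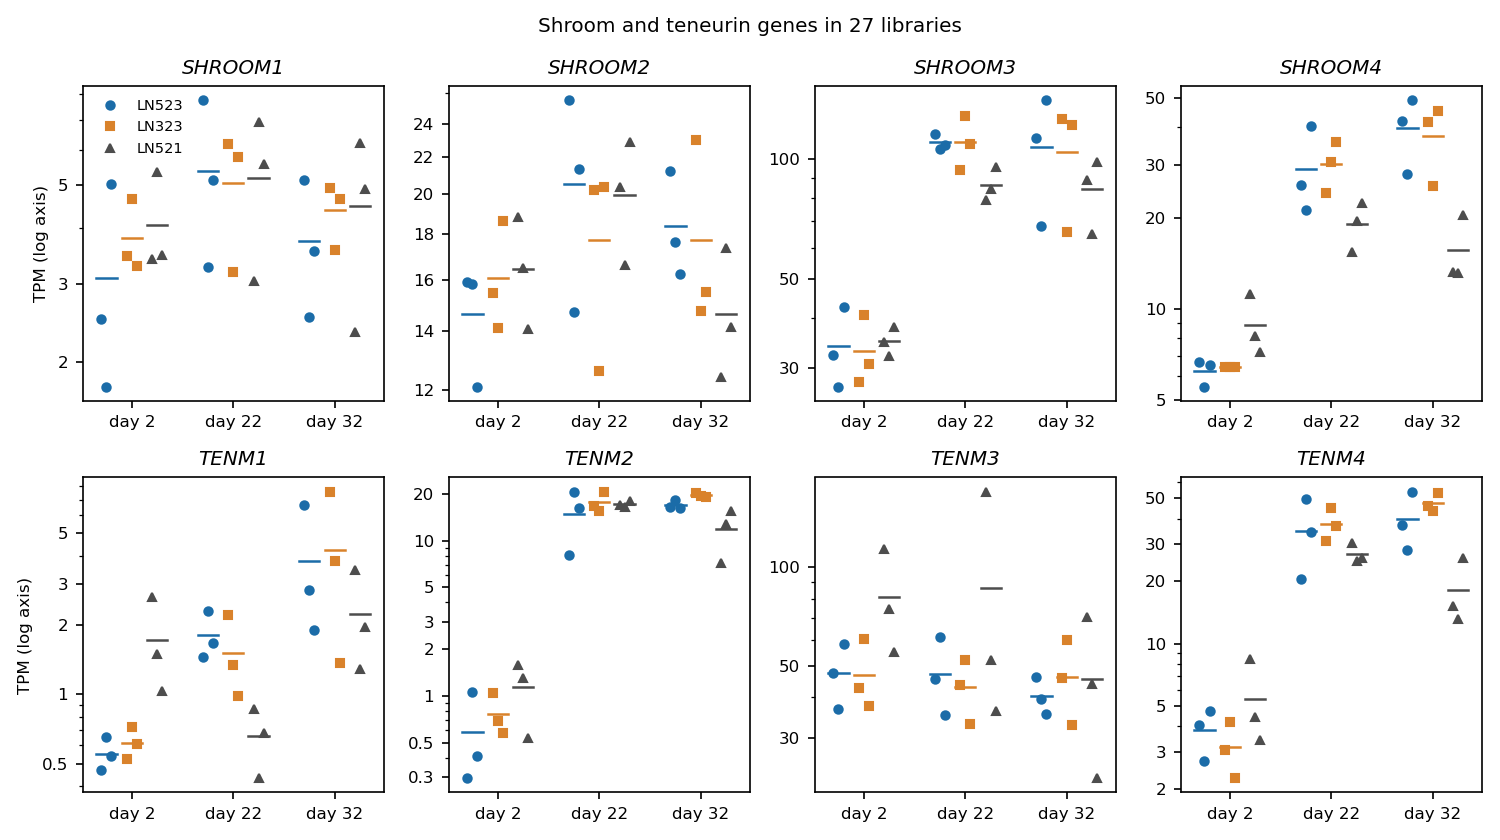
TPM of the 8 genes in each of the 27 libraries on log axes, by day and matrix, with points for libraries and short lines for the means of 3 libraries. SHROOM3, SHROOM4, TENM2, and TENM4 lie higher at days 22 and 32 than at day 2 on all matrices, and 1 LN521 library of day 22 stands at 170 TPM for TENM3.

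Within the families, the shares of the members shifted. TENM3 made up a median of 91.1% of the summed teneurin TPM at day 2 (89.3 to 91.7% over 9 libraries) and 45.7% at day 22 (36.1 to 78.0%). TENM4 went from 6.52% to 33.2% and TENM2 from 1.25% to 17.6%. In the Shroom family SHROOM3 held the first place, with 53.8% of the summed Shroom TPM at day 2 and 66.2% at day 22. SHROOM4 passed SHROOM2 for the second place by median, with medians of 11.5% and 27.6% at day 2 and 15.3% and 13.1% at day 22. The day 22 ranges overlapped, at 13.1 to 23.0% for SHROOM4 and 7.22 to 17.3% for SHROOM2. SHROOM4 was above SHROOM2 in 7 of 9 libraries at day 22, and below it in replicates 1 and 3 of LN521.

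The change from the undifferentiated state to day 22 was tested for each matrix. The libraries compared had no part in choosing the genes, but the day 32 libraries were in the same fit and shared its dispersion and lane terms. In fits of only the groups compared the same number of member tests passed (14 of 24). On LN523, 5 of 8 members passed an adjusted p-value of 0.05 and all 5 rose, where 21.7% of all 44852 genes passed, 11.5% as higher and 10.2% as lower. On LN323, 4 of 8 passed and rose (22.7% of all genes passed, 11.8% as higher and 10.9% as lower). On LN521, 4 of 8 rose and 1 fell, where 18.9% of all genes passed, 10.8% as higher and 8.09% as lower. These shares include genes with few counts. With the stricter filterByExpr count filter, 10707, 11149, and 9296 of 25682 genes passed on LN523, LN323, and LN521. Of these, 5677, 5757, and 5221 passed as higher. Beside these larger shares the member counts stood out less, and the 4 of 8 on LN323 lay near the share that passed. The median log2 fold change over the 8 members was 1.40 on LN523, 1.12 on LN323, and 0.72 on LN521, beside medians over all genes of 0.02, 0.02, and -0.02.

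SHROOM3 had CPM values of 129, 109, and 162 on LN523 at day 2 and of 362, 328, and 357 at day 22. The groups did not overlap, and the log2 fold change was 1.41 with a standard error of 0.21 (adjusted p = 4.18e-07). On LN323, SHROOM3 was at 114, 160, and 132 CPM at day 2 and 300, 410, and 372 CPM at day 22, a log2 fold change of 1.41 with a standard error of 0.21 (adjusted p = 3.99e-07). On LN521, it was at 101, 104, and 138 CPM and then at 245, 278, and 307 CPM, a log2 fold change of 1.29 with a standard error of 0.21 (adjusted p = 2.99e-06). SHROOM3 rose by a similar amount on each matrix, and the difference of its change between matrices was at most 0.12 on the log2 scale (standard error 0.29).

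SHROOM4, an X-linked member that organizes the actin cytoskeleton, was at 20.8, 17.7, and 19.5 CPM on LN523 at day 2 and at 63.2, 51.7, and 104 CPM at day 22. It rose 3.64-fold (log2 fold change 1.86, standard error 0.23, adjusted p = 4.90e-09). On LN323, the values were 20.9, 20.0, and 21.6 CPM and then 60.3, 77.0, and 95.01 CPM, a 3.67-fold rise (adjusted p = 3.62e-09). On LN521, SHROOM4 was at 25.5, 20.6, and 20.6 CPM at day 2 and at 37.8, 50.6, and 56.3 CPM at day 22, a 2.14-fold rise (log2 fold change 1.10, standard error 0.23, adjusted p = 0.000165). The rise was thus larger on LN523 and LN323 in the fitted values, by 0.77 and 0.78 on the log2 scale (standard error 0.32 each), but these differences did not pass the test across all genes (adjusted p = 1.0 and 0.811).

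SHROOM1 and SHROOM2 did not pass on any matrix. SHROOM1 was low throughout, at 2.40 to 6.41 CPM over the day 2 libraries and at 3.18 to 8.15 CPM at day 22, with log2 fold changes of 0.54, 0.06, and 0.33 on LN523, LN323, and LN521 (standard error 0.44 each). SHROOM2, a Shroom protein of endothelial and pigment epithelial cells, was at 28.6 to 49.7 CPM at day 2 and 25.1 to 49.6 CPM at day 22, with log2 fold changes of 0.14, -0.21, and 0.26 (standard error 0.24 each).

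TENM2 showed the largest change of the 8 genes on each matrix. On LN523, it was at 0.990, 3.63, and 1.31 CPM at day 2 and at 21.1, 53.3, and 44.6 CPM at day 22, a 20.32-fold rise (log2 fold change 4.35, standard error 0.37, adjusted p = 9.81e-14). On LN323, it went from 3.63, 2.30, and 2.07 CPM to 44.7, 41.9, and 58.8 CPM (log2 fold change 4.16, adjusted p = 2.07e-13). On LN521, it went from 3.87, 3.55, and 1.63 CPM to 44.3, 45.8, and 48.4 CPM (log2 fold change 3.93, adjusted p = 1.12e-12). TENM2 thus lay between 0.990 and 3.87 CPM in stem cells and between 21.1 and 58.8 CPM at day 22.

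TENM4, a teneurin known for its part in oligodendrocyte differentiation and axon myelination, rose from 19.9, 13.7, and 22.4 CPM to 79.3, 190, and 141 CPM on LN523 (log2 fold change 2.88, standard error 0.29, adjusted p = 1.23e-11). On LN323, it rose from 15.9, 20.5, and 12.0 CPM to 123, 178, and 156 CPM (log2 fold change 3.22, standard error 0.29, adjusted p = 4.38e-13). On LN521, it rose from 30.3, 17.7, and 15.6 CPM to 117, 102, and 102 CPM (log2 fold change 2.33, standard error 0.28, adjusted p = 2.93e-09). The lowest day 22 value of TENM4 on each matrix was more than the highest of its day 2 values.

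**Figure D2:**
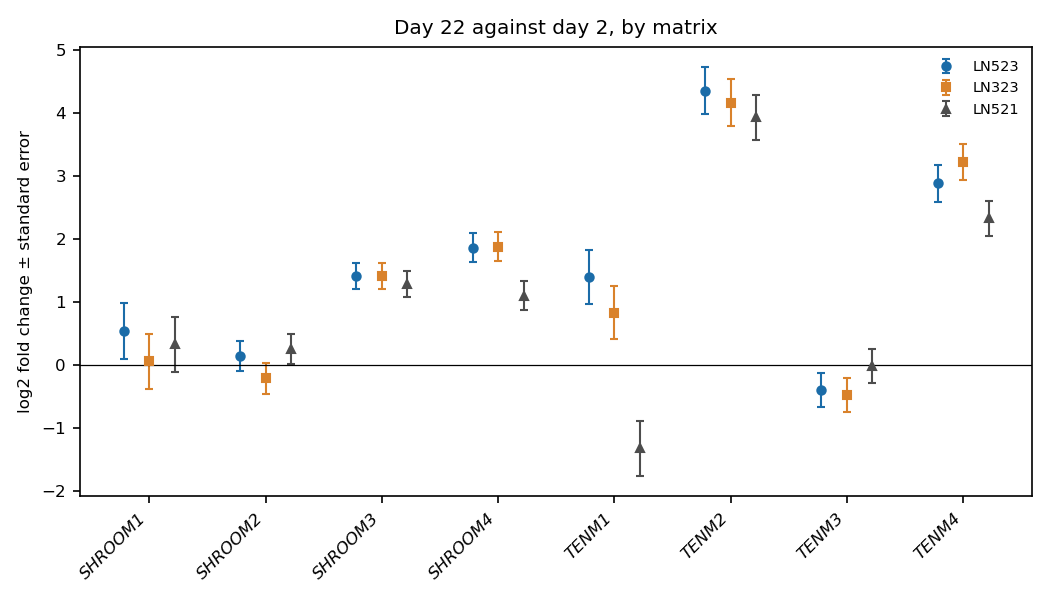
Log2 fold changes at day 22 against day 2 for the 8 genes, with 1 point per matrix and bars of 1 standard error from the edgeR fit. SHROOM3, SHROOM4, TENM2, and TENM4 lie above 0 on the 3 matrices, and TENM1 lies at 1.40 on LN523 and at -1.32 on LN521.

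TENM1, the X-linked member of the family, took opposite directions on LN523 and LN521. On LN523, it was at 1.82, 2.59, and 2.01 CPM at day 2 and at 4.44, 6.95, and 5.38 CPM at day 22, and it rose (log2 fold change 1.40, standard error 0.43, adjusted p = 0.0112). On LN521, it was at 7.55, 4.73, and 3.68 CPM at day 2 and at 2.63, 1.40, and 2.14 CPM at day 22, and it fell (log2 fold change -1.32, standard error 0.43, adjusted p = 0.0198). LN323 gave 2.12, 2.79, and 2.55 CPM and then 6.89, 4.19, and 3.28 CPM, a log2 fold change of 0.83 that did not pass (adjusted p = 0.184). The difference of the change between LN523 and LN521 was 2.72 on the log2 scale (standard error 0.60, adjusted p = 0.131), and that between LN323 and LN521 was 2.15 (standard error 0.60, adjusted p = 0.248). Over the 24 tests of such differences, 8 members by 3 pairs of matrices, edgeR called 0, DESeq2 called 1 (TENM1, LN523 against LN521), and 5 had an unadjusted p-value under 0.05. TENM1 passed for LN523 against LN521 without replicate 1 of LN523 or replicate 3 of LN521 at day 22 (3.11 and 3.07, adjusted p = 0.0395 and 0.0241). In edgeR fits of only the groups compared, TENM1 passed for LN523 against LN521 (2.82, adjusted p = 0.00179) and for LN323 against LN521 (2.25, adjusted p = 0.0356). Those fits called 307 of 41460 and 453 of 41341 genes. In the reported fit, the share of all genes called in these differences was 0.0% for LN523 against LN323, 0.00446% for LN523 against LN521, and 0.0201% for LN323 against LN521. The rise of TENM1 on LN523 did not pass without replicate 1 of day 2 (log2 fold change 1.10, adjusted p = 0.118). The fall on LN521 did not pass without replicate 1 of day 2 (-1.24, adjusted p = 0.0757) or without replicate 1 or 2 of day 22 (-1.22 and -1.06, adjusted p = 0.0838 and 0.157). In GENCODE 44, 3.75% of the exonic bases of TENM1 lie in other genes of the same strand, and the counting of reads from these bases is uncertain.

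TENM3, a teneurin that patterns retinal circuits, was the most abundant member in stem cells and did not pass on any matrix. Its CPM values were 172, 137, and 201 on LN523 at day 2 and 130, 171, and 105 at day 22 (log2 fold change -0.39, standard error 0.27). On LN323, they were 161, 217, and 148 and then 127, 151, and 102 (log2 fold change -0.48, standard error 0.27). On LN521, they were 301, 218, and 183 and then 483, 156, and 106, and the library at 483 CPM was the one with the high neuron and pluripotency markers. The part of these markers in that value was not tested. The log2 fold change on LN521 was -0.02 with that library and -0.71 without it (adjusted p = 1.0 and 0.043). TENM3 overlaps antisense transcripts over 1.94% of its exonic bases and SHROOM3 over 6.6%, and no source used here states whether strand was used in counting.

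**Figure D3:**
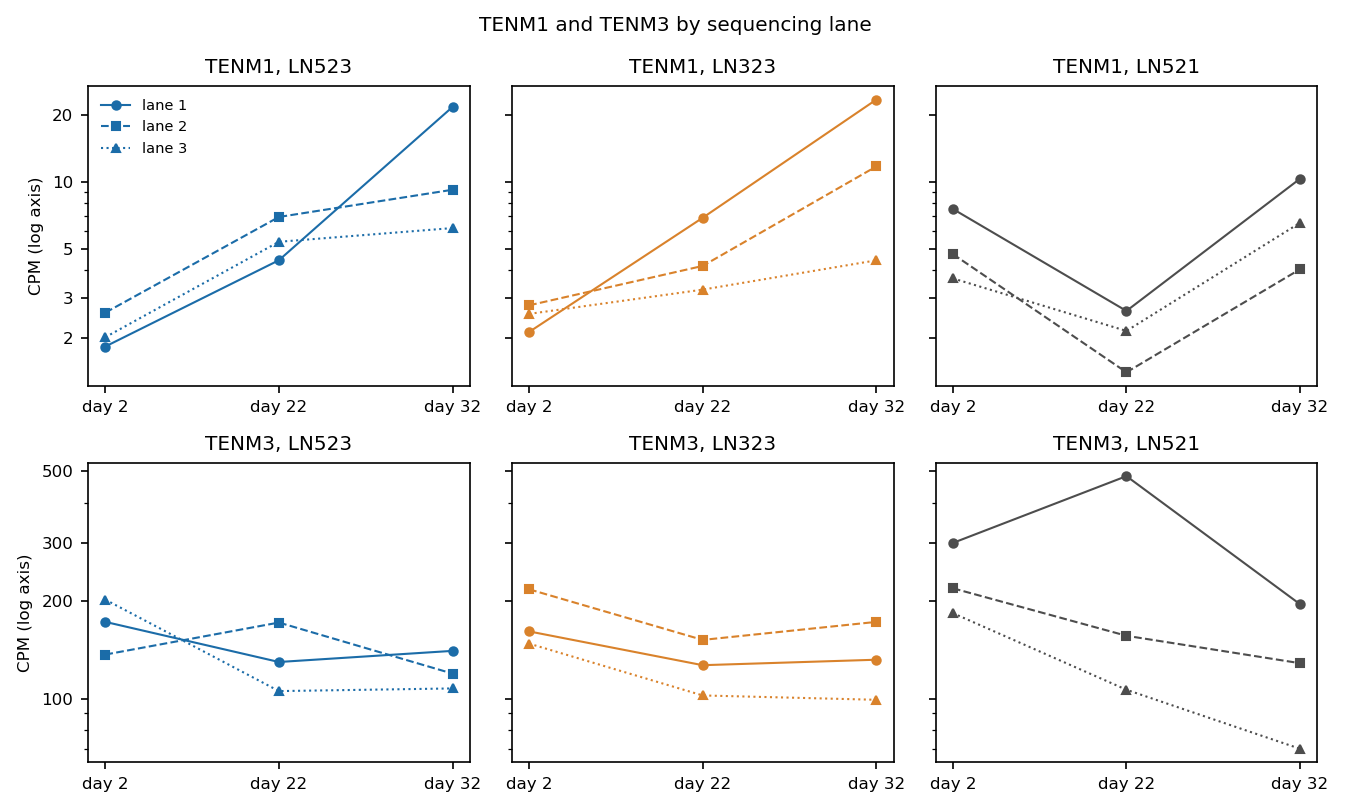
CPM of TENM1 and TENM3 on log axes at days 2, 22, and 32, with 1 line per sequencing lane (equal to the replicate number) and 1 panel per matrix. TENM1 is lower at day 22 than at day 2 in each lane of LN521 and higher in each lane of LN523 and LN323, and lane 1 of LN521 holds the TENM3 value of 483 CPM.

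Between days 22 and 32 no member of those tested passed by edgeR, over 8 tests on LN323 and 6 on each of LN523 and LN521 (0 of 20 by edgeR, 1 by DESeq2, and 4 with an unadjusted p-value under 0.05). Of all genes, 0.381% passed on LN523, 0.0424% on LN323, and 0.268% on LN521. TENM1 had the largest log2 fold change on each matrix and was higher at day 32 in 3 of 3 lanes on each. On LN521, it was at 10.3, 4.05, and 6.54 CPM at day 32, above all 3 of its day 22 values (log2 fold change 1.72, standard error 0.43, adjusted p = 0.060), and the ratio was 3.3-fold. DESeq2 gave an adjusted p of 0.0162, and the fit of only the groups compared one of 0.0163. Without replicate 2 of LN521 at day 32 it passed by edgeR (1.96, adjusted p = 0.0245), and TENM3 on LN521 passed without replicate 3 of day 22 (-1.17, adjusted p = 0.0322). On LN323, TENM1 was at 23.3, 11.7, and 4.44 CPM at day 32 (log2 fold change 1.37, adjusted p = 0.542, and 0.0174 in the fit of only the groups compared), and on LN523 at 21.6, 9.20, and 6.19 CPM (log2 fold change 0.95, adjusted p = 0.980). The lane 1 libraries of LN523 and LN323 were the highest of the 27 for TENM1, and the day 22 and day 32 values overlapped on both matrices. TENM2 on LN521 was at 18.4, 34.3, and 44.2 CPM at day 32, below its 3 values of day 22, with a log2 fold change of -0.54 with a standard error of 0.32 (adjusted p = 0.957). The library at 18.4 CPM was replicate 1, which differed from the others of its group in the marker sums given above. The part of these sums in the TENM2 value was not tested. TENM3 on LN521 had a log2 fold change of -0.87 (adjusted p = 0.256). SHROOM4 and TENM4, which were not tested on LN523 and LN521, had log2 fold changes of 0.53 and 0.25 on LN523 and of -0.31 and -0.59 on LN521.

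The matrices were compared with one another at day 2, when the cells had been plated but not yet given differentiation medium. By edgeR 0 of 24 member tests passed, DESeq2 called 1 (TENM1, LN523 against LN521), and 4 had an unadjusted p-value under 0.05. Of all genes, 0.233% passed for LN523 against LN323, 0.624% for LN523 against LN521, and 2.5% for LN323 against LN521. TENM1 was nearest to the threshold, lower than on LN521 in 3 of 3 lanes on LN523 (log2 fold change -1.39, standard error 0.39, adjusted p = 0.0561) and on LN323 (-1.18, standard error 0.39, adjusted p = 0.0777). Without lane as a block, both passed (adjusted p = 0.0218 and 0.0373), as did TENM3 on LN323 against LN521 (log2 fold change -0.54, adjusted p = 0.0357). TENM1 and TENM3 on LN523 against LN521 also passed without replicate 3 of LN523 (-1.45 and -0.82) or of LN521 (-1.65 and -0.75). Without replicate 2 of LN323, TENM1, TENM3, and TENM4 passed on LN323 against LN521 (-1.23, -0.80, and -0.85), and TENM3 did without replicate 3 of LN521 (-0.71). The median over all genes was itself -0.19 for LN523 and -0.20 for LN323 against LN521. The LN521 libraries of day 2 had pluripotency marker sums of 7517 to 10690 CPM, below the sums of 11310 to 12650 CPM on LN523 and LN323, and the part of these sums in the TENM1 values was not tested.

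At day 22, 3 of 24 member tests passed, and each involved LN521. TENM1 was higher on LN523 than on LN521 (5.59 ± 1.26 against 2.06 ± 0.622 CPM, mean ± SD, n = 3), and the log2 fold change was 1.49 with a standard error of 0.39 (adjusted p = 0.0475), where 0.572% of all genes passed. SHROOM4 was higher on LN323 than on LN521 (77.4 ± 17.4 against 48.2 ± 9.48 CPM), and the log2 fold change was 0.67 with a standard error of 0.18 (adjusted p = 0.0435). TENM3 was lower on LN323 than on LN521 (127 ± 24.6 against 248 ± 204 CPM), and the log2 fold change was -0.76 with a standard error of 0.20 (adjusted p = 0.0483). In that comparison 0.616% of all genes passed. SHROOM4 on LN523 against LN521 had a log2 fold change of 0.57 (adjusted p = 0.179), and TENM4 on LN323 against LN521 one of 0.46 (adjusted p = 0.478). Between LN523 and LN323 no member passed (0.013% of all genes), with log2 fold changes between -0.34 and 0.30.

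The 3 calls at day 22 lay just under the threshold and were lost together with the filterByExpr filter, without lane as a block, or when only the compared groups were fitted. The number of all genes that passed also depended on the fit. The reported fit called 221 genes for LN523 against LN521 and 238 for LN323 against LN521, the filterByExpr filter left 0 and 0, the fit without the block 1 and 0, and the fit of only the groups compared 0 and 282. The call of TENM1 was also lost without replicate 2 or 3 of LN523 or replicate 2 of LN521 (log2 fold changes of 1.16 to 1.42), that of SHROOM4 without any 1 of the 3 LN323 libraries or replicate 3 of LN521 (0.57 to 0.71), and that of TENM3 without any 1 of the LN323 libraries (-0.40 to -0.94). TENM3 on LN523 against LN521 passed without replicate 2 of LN523 (-0.88) or replicate 2 or 3 of LN521 (-1.03 and -1.0), as did SHROOM4 without replicate 2 of either matrix (0.80 and 0.71). Without replicate 1 of LN521, TENM3 on LN523 against LN521 was at 0.05. The value of TENM3 on LN323 against LN521 rested on 1 library: without replicate 1 of LN521 its log2 fold change was -0.04 (adjusted p = 1.0), while TENM4 then passed on LN323 against LN521 (0.80, adjusted p = 0.00072). The day 22 libraries of LN521 also had higher pluripotency marker sums (160.9 to 562 CPM) than those of LN323 (99.8 to 121 CPM), and higher pigment epithelium marker sums (1698 to 2427 CPM over 7 markers) than those of LN523 (1050 to 1322 CPM). The pluripotency sum of 562 CPM was that of replicate 1. LN521 had lower mesenchyme and endothelium marker sums (583 to 1094 CPM) than LN323 (1428 to 2520 CPM) and lower lens marker sums (16.4 to 30.6 against 37.3 to 47.5 CPM). No marker of these 4 lists was at 0 in all 3 libraries of a group, although NANOG was at 0 in 1 library of LN523 and 1 of LN323, RPE65 in 2 of LN523 and 1 of LN521, and PECAM1 in 1 of LN323. The part of these sums in the differences was not tested.

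**Figure D4:**
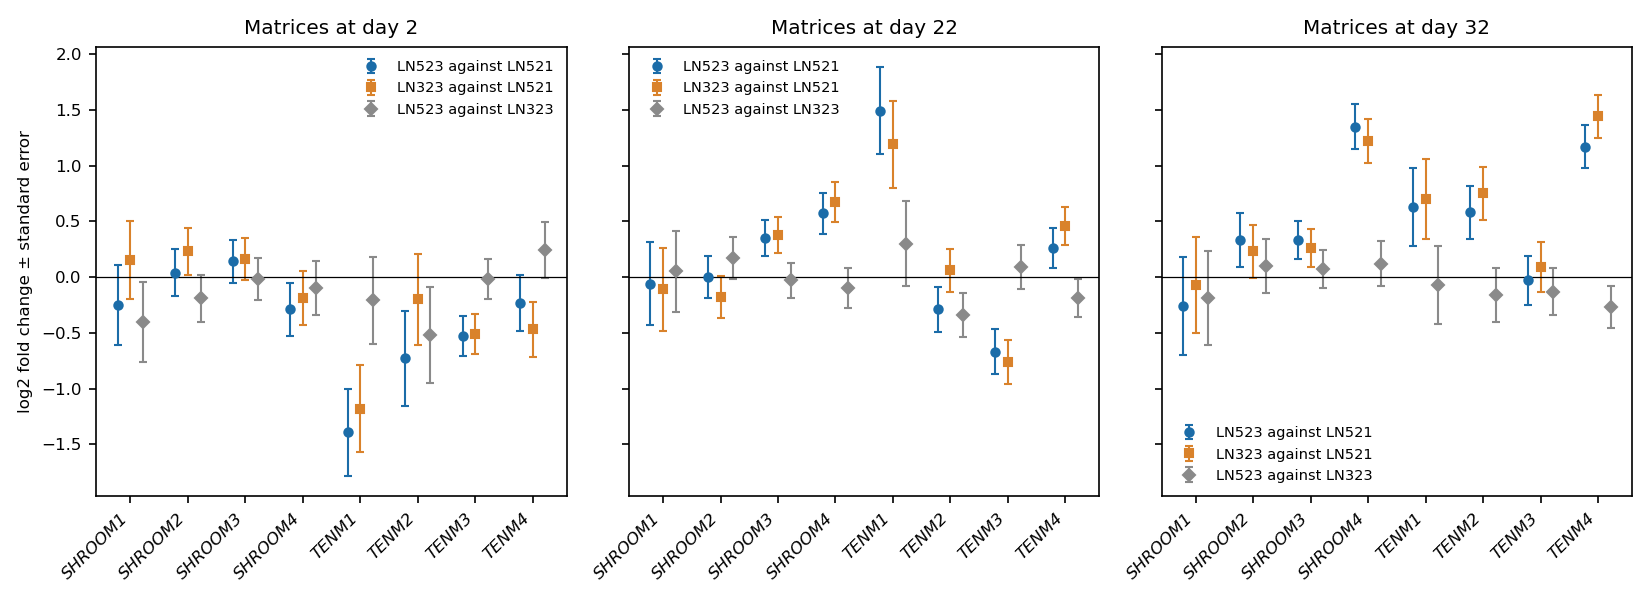
Log2 fold changes between matrices at days 2, 22, and 32 for the 8 genes, with bars of 1 standard error from the fit to the 9 libraries of each day. At day 32 SHROOM4 and TENM4, whose values chose the genes, lie at 1.35 and 1.17 for LN523 against LN521, and the points of LN523 against LN323 lie within 0.27 of 0.

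The day 32 values that led to the choice of genes are described without a test. SHROOM4 was at 110, 73.3, and 128 CPM on LN523 and at 31.7, 33.2, and 54.8 CPM on LN521. The libraries did not overlap, and the ratio in the fit was 2.55-fold. TENM4 was at 154, 117, and 221 CPM on LN523 and at 57.3, 52.1, and 109 CPM on LN521, also without overlap and with a ratio of 2.25-fold. LN323 resembled LN523 for both genes, with 103, 63.2, and 118 CPM for SHROOM4 and 180, 169, and 218 CPM for TENM4. The fitted log2 fold changes of LN323 against LN521 were 1.22 for SHROOM4 and 1.44 for TENM4, and those of LN523 against LN323 were 0.12 and -0.27. In the comparison of LN523 with LN521, 0.0609% of all genes passed.

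The lens marker sum was also higher on LN523 and LN323 than on LN521 at day 32, and its ranges on LN523 and LN323 overlapped. Over 5 markers it was 45.7 to 96.6 CPM on LN523, 66.7 to 242 CPM on LN323, and 15.3 to 45.03 CPM on LN521. No lens marker was at 0 in all libraries of a group, although FOXE3 was at 0 in 2 of the 3 LN523 libraries. The sum of 7 surface ectoderm and keratinocyte markers was 79.1 to 882 CPM on LN523, 195 to 965 CPM on LN323, and 411 to 866 CPM on LN521, and these ranges overlapped. The neural retina progenitor sums overlapped as well, at 1082 to 2204 CPM on LN523, 935 to 1888 CPM on LN323, and 1180 to 1816 CPM on LN521. Whether these sums bear on SHROOM4 and TENM4 was not tested.

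The other 6 members were closer to each other at day 32. For LN523 against LN521, TENM2 was at 46.3, 50.8, and 45.4 CPM against 18.4, 34.3, and 44.2 CPM, without overlap and with a log2 fold change of 0.58. SHROOM3 was at 378, 226, and 466 CPM against 271, 208, and 335 CPM, and its groups overlapped. The fitted log2 fold changes of SHROOM1, SHROOM2, TENM1, and TENM3 were -0.26, 0.33, 0.63, and -0.03, and the groups overlapped for these genes. In the comparisons with LN323, 12 member tests were made at day 32, and edgeR called 0, DESeq2 called 0, and 1 had an unadjusted p-value under 0.05. Of all genes, 0.0% passed for LN523 against LN323, where 747 had an unadjusted p-value under 0.05, and 0.117% for LN323 against LN521. For LN523 against LN323 this count depended strongly on the fit, since DESeq2 called 823 genes and the fit of only the groups compared 1035. TENM3 on LN323 against LN521 was at 0.09 and passed without replicate 1 of LN521 (0.42, adjusted p = 0.0454). The largest log2 fold change among these tests was that of TENM2 on LN323 against LN521, at 0.75 (standard error 0.24, adjusted p = 0.482). SHROOM3 and SHROOM4 were lowest in the lane 2 libraries of LN523 and LN323, which were also the libraries with the highest mesenchyme marker sums. On LN521, SHROOM3 was lowest in lane 2 as well, at 208 CPM against 271 and 335 CPM. That library had a mesenchyme marker sum of 1118 CPM, against 2005 and 1060 CPM in lanes 1 and 3. SHROOM4 on LN521 was lowest in lane 1, at 31.7 CPM. The part of these sums in the values was not tested.

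Genes that act with the Shroom proteins were examined as a list of 18, among them myosin II subunits and junction proteins. At day 22 against day 2 on LN523, 4 of 18 rose, 4 fell, and 10 did not pass, with a median log2 fold change of 0.09, where 21.7% of all genes passed. On LN323, 3 rose and 3 fell, and on LN521, 2 rose and 2 fell, with medians of -0.03 and 0.27, where 22.7% and 18.9% of all genes passed. The 4 of 18 on LN521 lay near the share over all genes. With the stricter filterByExpr count filter, 10707, 11149, and 9296 of 25682 genes passed on LN523, LN323, and LN521. These shares are larger than those over all genes, and no excess of the list on any matrix is read from its counts. DESeq2 called 9, 8, and 8 of the 18 on LN523, LN323, and LN521. Of the 27460 genes to which it gave an adjusted p-value, it called 11542, 11984, and 10354. The list counts by DESeq2 lay near these shares. MYL9, a regulatory light chain of myosin II, went from 41.8, 32.0, and 18.3 CPM to 117, 101, and 82.2 CPM on LN523 (log2 fold change 1.70, standard error 0.28, adjusted p = 4.02e-06). MYH14, a heavy chain of nonmuscle myosin II, rose from 50.4 ± 10.3 to 99.2 ± 11.9 CPM (log2 fold change 0.95, standard error 0.22, adjusted p = 0.000766). AFDN, which links nectins to actin at adherens junctions, fell from 366 ± 20.5 to 222 ± 13.1 CPM (log2 fold change -0.72, standard error 0.18, adjusted p = 0.0013). MYL12A, another light chain, fell from 132 ± 8.63 to 84.3 ± 4.90 CPM (log2 fold change -0.64, standard error 0.20, adjusted p = 0.0124). The heavy chains therefore moved in different directions, since MYH10 fell on all 3 matrices (log2 fold changes of -0.61 to -0.69, adjusted p at most 0.0138) while MYH14 rose on all 3.

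Receptors and ligands of the teneurin system were examined as a list of 11, comprising latrophilins (ADGRL), their FLRT and UNC5 partners, and DAG1. On LN523, 5 of 11 rose, 3 fell, and 3 did not pass at day 22, with a median log2 fold change of 0.82, where 11.5% of all genes passed as higher and 10.2% as lower. On LN323, 6 rose and 3 fell, and on LN521, 4 rose and 3 fell, with medians of 0.91 and 0.71, where 22.7% and 18.9% of all genes passed. DESeq2 called 9, 8, and 7 of the 11 on LN523, LN323, and LN521, and 11542, 11984, and 10354 of the 27460 genes to which it gave an adjusted p-value. FLRT3, a transmembrane ligand of latrophilins, went from 9.95, 2.03, and 9.72 CPM to 223, 429, and 382 CPM on LN523 (log2 fold change 5.56, standard error 0.37, adjusted p = 8.32e-18). FLRT2 went from 6.17, 6.41, and 5.56 CPM to 90.3, 244, and 112 CPM (log2 fold change 4.56, standard error 0.35, adjusted p = 2.34e-15). Both rose on all 3 matrices, as did the latrophilin gene ADGRL3 (log2 fold changes of 0.73 to 1.0) and UNC5C (4.18 to 4.56). ADGRL1 fell on all 3 (-0.48 to -0.62), and ADGRL2 did not pass on any. UNC5A, a netrin receptor gene, fell from 15.7 ± 6.48 to 2.53 ± 0.984 CPM on LN523 (log2 fold change -2.60, standard error 0.47, adjusted p = 1.65e-05). UNC5D was at 91.5, 149, and 162 CPM and then at 100, 21.0, and 55.4 CPM (log2 fold change -1.35, standard error 0.33, adjusted p = 0.00123), with 1 day 22 library above the lowest day 2 library.

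**Figure D5:**
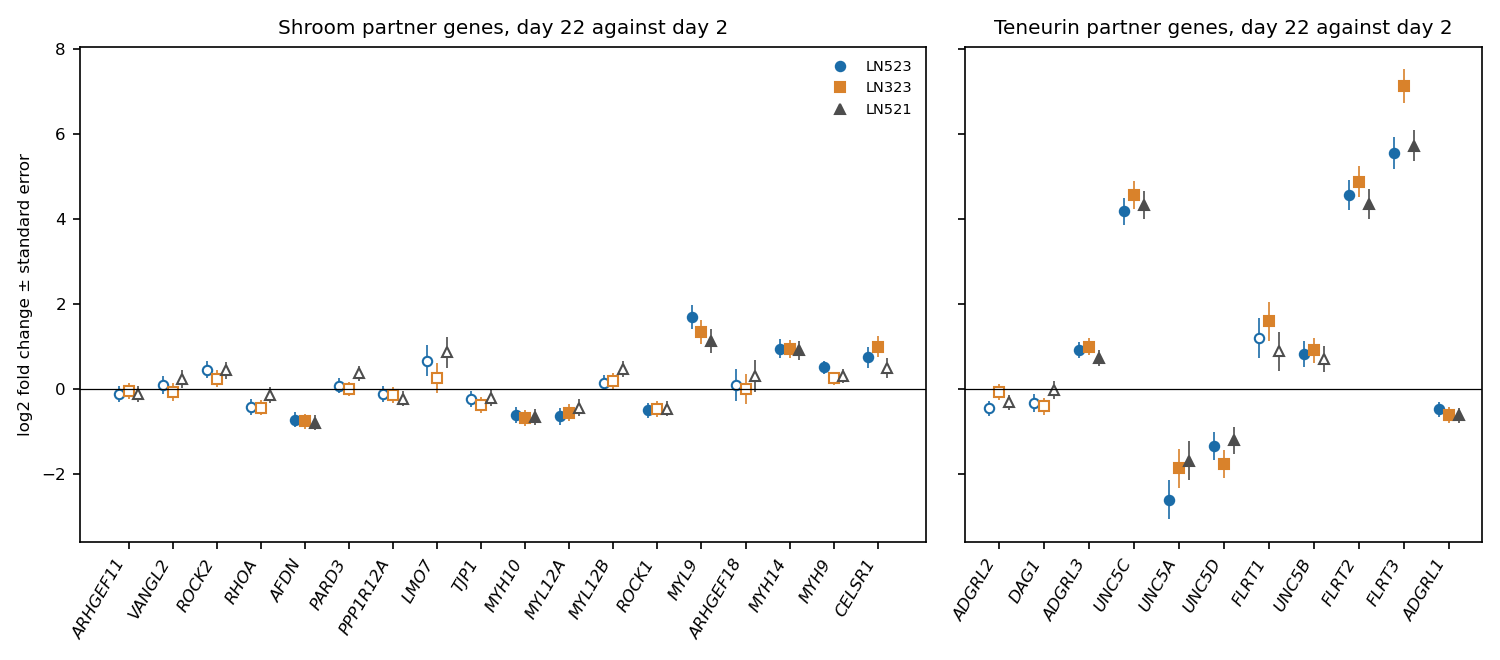
Log2 fold changes at day 22 against day 2 for 18 Shroom partner genes and 11 teneurin partner genes by matrix, with bars of 1 standard error, filled symbols for an adjusted p-value under 0.05, and open symbols for the others. FLRT2, FLRT3, and UNC5C lie above 4 on all matrices, and the Shroom partner genes lie within 1.70 of 0.

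By edgeR, 0 partner genes of either list passed between days 22 and 32, between matrices within days 2, 22, or 32 where tested, or in the differences of the day 22 change between matrices. At an unadjusted p-value under 0.05 these comparisons held 0 to 3 of the 18 Shroom partner genes and 0 to 5 of the 11 teneurin partner genes each, and the 5 were in LN323 against LN521 at day 32. DESeq2 called 1, UNC5B in that comparison, and 0 in the others.

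The patterns of the members over the 9 groups were compared with 17123 other named genes with at least 1 CPM in a group, by the root mean square difference of centred mean log2 CPM. SHROOM3 was most like CERK, COLEC11, and MOB3B (differences of 0.08 to 0.10, where SHROOM3 itself ranged over 1.66). SHROOM4 was most like RAI2, DACT2, and CASZ1 (0.17 to 0.19, range 2.39), and TENM4 most like PCDHGB6, IGDCC4, and GALNTL6 (0.13 to 0.19, range 3.57). TENM2 was most like AZIN2, ASXL3, and RALYL (0.15 to 0.21, range 4.92). TENM1 had no close neighbour, and COL16A1, COL23A1, and MIP were nearest at 0.28 to 0.41 (range 2.40). TENM3 was nearest to TNFRSF13C, C21orf58, and FAM221A at 0.12 each (range 0.92). SHROOM1 and SHROOM2 ranged over only 0.53 and 0.50, and SLC7A6OS, ATG7, and TUBGCP5 were nearest to SHROOM1, and RPL13AP7, ANKS1A, and LIG3 to SHROOM2 (0.05 to 0.11). Among the members, SHROOM1 and SHROOM2 were the most alike (0.18), followed by SHROOM2 with TENM3 (0.33) and SHROOM3 with SHROOM4 (0.36), and TENM2 and TENM3 were the least alike (2.21).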

How the data were processed

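RNA-seq libraries were made by the authors with a stranded total RNA kit and ribosomal RNA removal, and paired reads of 150 bases were obtained. Alignment was to GRCh38 by STAR 2.5.2b and gene counting by featureCounts 1.5.1. The deposited values are rounded counts, not normalized, without rRNA and mitochondrial genes. The submitters' processing notes also name cutadapt. The deposited TPM values are the same counts divided by 1 length per gene and scaled within each library. The strand setting of the counting is not given in the sources used here.

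The members and gene lists were chosen with earlier results of these data known. Counts were tested by quasi-likelihood in edgeR (4.0.16, under R 4.3.3) after TMM scaling, on genes with more than 1 count in sum, and Benjamini-Hochberg adjustment over all genes tested. Days and differences between matrices in their change were fitted on all 27 libraries, and matrices on the 9 libraries of a day (biological coefficient of variation 37.4 to 44.4%). Sequencing lane, which equals the replicate number in the labels, was a block, as in the study's model. Libraries of the same lane and day on different matrices had deviations from their group means that correlated at a median of 0.147 (range -0.508 to 0.772), over 0.1 in 17 of 27 pairs. The standard error is the log2 fold change divided by the square root of F. Levels are CPM after TMM normalization or TPM. Genes were named and placed by GENCODE 44 (43052 of 44852 identifiers matched), and promoters are RefSeq windows of GRCh38.p14. The named genes are the 8 members, up to 2 rises and 2 falls per partner list on LN523 and 3 genes most like each member; MYH10, ADGRL1, ADGRL2, ADGRL3, UNC5B, and UNC5C were named after their values were seen. Alternatives were RLE normalization, DESeq2 1.42.0, the filterByExpr filter, no block, only the groups compared, and leaving out each library. The scripts were tested on simulated data.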

Additional observations from a re-analysis of the deposited data

Results flagged for a closer look

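TENM1 moved in opposite directions in every lane from day 2 to day 22, up on LN523 (log2 fold change 1.40) and on LN323 (0.83) and down on LN521 (-1.32). The test of the difference gave adjusted p = 0.131 for LN523 against LN521 and 0.248 for LN323 against LN521 (edgeR's quasi-likelihood test). These are the same differences as those between matrices, so the difference between LN523 and LN521 in TENM1 also changed sign in every lane between day 2 (-1.39) and day 22 (1.49), as did that between LN323 and LN521 (-1.18 and 1.19).

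By lane, SHROOM4 changed from day 22 to day 32 by 0.8, 0.5, and 0.29 on LN523 on the log2 scale. On LN521 it changed by -0.25, -0.61, and -0.04. SHROOM4 thus moved in opposite directions in every lane, though barely in lane 3 of LN521. SHROOM4 had fitted log2 fold changes of 0.53 on LN523 and -0.31 on LN521. Its difference between LN523 and LN521 was negative in every lane at day 2 (-0.29) and positive in every lane at days 22 (0.57) and 32 (1.35), and that between LN523 and LN323 was -0.10 at day 2 and 0.12 at day 32. The change of the difference between LN523 and LN521 from day 2 to day 22 was tested (0.77, adjusted p = 1.0). The differences of SHROOM4 that involve day 32 were not tested, since those values chose the genes.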

How the results depend on the processing

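Of the values at day 22 against day 2, those of SHROOM3, SHROOM4, TENM2, and TENM4 passed on every matrix under every alternative run, and the count of 14 of 24 tests was 13 to 14 when each library was left out. The 3 calls between matrices at day 22 depended on the processing. RLE normalization and DESeq2 each left 1, and the filterByExpr filter, the fit of only the groups compared, and the fit with no replicate block left 0, and leaving out a library gave 1 to 4. Without the replicate block 3 tests passed at day 2 in place of 0, and 0 at day 22 in place of 3, and the counts of member tests passed in the other comparisons did not change. The number of all genes called was less stable. Over RLE normalization, DESeq2, the filterByExpr filter, no replicate block, and the fit of only the groups compared, it kept within 1.5 times of the reported number at day 22 against day 2. For LN523 against LN323, LN523 against LN521, and LN323 against LN521, it was 90, 241, and 967 as reported at day 2 and 0 to 706, 0 to 639, and 0 to 1476 over these alternatives. At day 22, it was 5, 221, and 238 as reported, and 0 to 548, 0 to 487, and 0 to 626. At day 32, it was 0, 24, and 46 as reported, and 0 to 1035, 0 to 823, and 0 to 794. In the differences of the day 22 change, it was 0, 2, and 9 as reported, and 0 to 36, 0 to 307, and 0 to 453. For day 32 against day 22 on LN523, LN323, and LN521, it was 171, 19, and 120 as reported, and 0 to 496, 1 to 350, and 5 to 384. DESeq2 called 1 test for days 32 and 22, 1 between matrices at day 2, and 1 in the difference of the day 22 change, and the fit of only the groups compared called 2, 1, and 2, where the counts reported are 0. Leaving out a library gave 0 to 1 calls for days 32 and 22, 0 to 3 between matrices at day 2, 0 to 1 at day 32, and 0 to 1 in the difference of the change. These settings share most of their libraries, and the cause of the changed calls was not tested. Of 363 recomputed values of members that were called or described without a test, 334 kept their direction and their side of the threshold, 28 kept their direction and no longer passed, 0 changed sign, and 1 moved beyond the spread (SHROOM2, LN523 against LN521 at day 32, 0.07 without replicate 1 of LN521). Members that did not pass were less stable, and 139 of 1365 of their recomputed values changed sign, from values of at most 0.67 in size. Of those printed in the report, 16 of 432 did. Leaving out a library gave ranges that crossed 0 at day 22 against day 2 for SHROOM1 on LN323 (-0.09 to 0.43) and LN521 (-0.03 to 0.69), SHROOM2 on LN523 (-0.04 to 0.45) and LN323 (-0.30 to 0.07), and TENM3 on LN523 (-0.59 to 0.04) and LN521 (-0.71 to 0.34, and 0.09 with no replicate block). The same held for TENM1 on LN523 against LN323 at day 22 (-0.05 to 0.66), TENM3 on LN523 against LN521 at day 22 (-1.03 to 0.05) and on LN323 against LN521 at day 32 (-0.11 to 0.42), and SHROOM3 in the difference of the change between LN323 and LN521 (-0.07 to 0.39).

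Depth limits SHROOM1 and TENM1 most, with medians of 174 and 181 counts per library, and TENM2 at day 2, where the lowest count was 34. With 3 libraries in each group, several calls lay close to the threshold.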
